A study of Mus musculus with 12 samples.

Results

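The common gamma chain receptors are cell-surface receptors that pair a private chain with the shared chain encoded by Il2rg, and they were followed here in microglia of the hippocampus, where these cells are the local macrophages, between postnatal day 14 (P14) and postnatal day 28 (P28). The 10 genes were taken by name from the table of raw counts, which held all of them among 545 immune genes. They were 7 receptor chains (Il2ra, Il2rb, Il2rg, Il4ra, Il7r, Il15ra and Il21r) and 3 ligands (Il2, Il7 and Il15). The samples came from control male Balbc pups raised without the early life stress that the study is named for, 6 samples at each age (P14 samples 4, 5, 16, 25, 61 and 81, and P28 samples 118, 119, 134, 135, 137 and 138), all from different litters, so p-values measure the spread between litters. Microglia were enriched on a Percoll gradient and then by FACS; the sorting markers are not given in the sources used here. The comparison asks which of these genes differ with age in unstressed animals; stressed animals were not analysed here.

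Signalling through this family starts when a cytokine joins a private chain to the shared gamma chain, which brings together the kinases JAK1 and JAK3 and leads to phosphorylation of STAT factors, mainly STAT5 for the cytokines IL-2, IL-7 and IL-15, STAT6 for IL-4 and STAT3 for IL-21. The family is best known for its role in the growth and survival of lymphocytes, and loss of the shared chain causes severe combined immunodeficiency. IL-15 is usually held on the surface of the cell that makes it by the chain encoded by Il15ra and shown to the beta and gamma chains of a neighbouring cell. In macrophages and microglia the private chain of the IL-4 receptor is known as the entry point of alternative activation.

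Levels were measured with the nCounter mouse immune panel, in which a fluorescent barcode marks each captured target and the barcodes are counted. Each level is a raw count divided by the relative geometric mean of 6 reference genes of its sample, called a scaled count below. A probe has its own capture and amplification yield, so the level of a gene is compared between samples and never with the level of another gene. A gene was treated as present where no fewer than 40% of the 12 samples had a raw count over a lane threshold. The threshold was set 2 SD over the mean of the 8 negative-control probes. It ran from 12.9 to 32.0 raw counts at P14 (mean 19.6) and from 24.8 to 33.4 at P28 (mean 28.8). Of the 10 genes, 7 were present (Il7r, Il21r, Il4ra, Il15ra, Il2rb, Il2rg and Il15) and 3 were not (Il2ra, Il2 and Il7). Because presence asks only for signal in 40% of the samples, a gene could pass through a single age, as Il2rb did.

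RefSeq (GRCm38.p6) held a promoter for 7 of the 10 genes (not for Il2rb, Il15 or Il7), and the stretches upstream of the annotated start of 4 receptor genes are shown because 2 of them, Il7r and Il21r, rose with age, Il4ra is the neighbour of Il21r, and Il2rg encodes the chain that all of them share. Capitals mark matches, on either strand, to AGGAAG, a core bound by ETS factors such as PU.1 of the macrophage lineage, or to TTCNNNGAA, the pattern bound by STAT factors; the 2 motifs do not overlap in any of these stretches.
Il7r, chr15:9529942-9530126, minus strand: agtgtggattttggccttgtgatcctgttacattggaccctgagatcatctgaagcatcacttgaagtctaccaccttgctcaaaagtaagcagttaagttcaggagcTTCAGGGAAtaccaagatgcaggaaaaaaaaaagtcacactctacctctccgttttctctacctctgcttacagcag
Il21r, chr7:125603179-125603251, plus strand: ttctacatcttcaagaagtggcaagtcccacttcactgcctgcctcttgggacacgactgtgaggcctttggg
Il4ra, chr7:125552021-125552270, plus strand: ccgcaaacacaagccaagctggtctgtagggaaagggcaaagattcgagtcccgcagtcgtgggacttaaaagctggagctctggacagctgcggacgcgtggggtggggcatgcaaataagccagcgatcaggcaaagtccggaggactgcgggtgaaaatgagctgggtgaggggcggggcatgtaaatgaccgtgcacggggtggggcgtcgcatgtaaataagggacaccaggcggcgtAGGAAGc
Il2rg, chrX:101268256-101268505, minus strand: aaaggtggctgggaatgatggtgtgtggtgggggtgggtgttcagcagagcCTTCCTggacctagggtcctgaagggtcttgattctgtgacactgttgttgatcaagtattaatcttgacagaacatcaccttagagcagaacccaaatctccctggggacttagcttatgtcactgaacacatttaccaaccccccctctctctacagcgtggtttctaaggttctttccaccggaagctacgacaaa
The 185 bases of Il7r hold a TTCNNNGAA match that begins 77 bases before the annotated start; the pattern, though not each of its letters, is met on both strands. The 300-base promoter window of Il7r runs past that start and also holds the complement of AGGAAG, outside the stretch shown. The Il4ra stretch of 250 bases holds AGGAAG 7 bases before the start, and that of Il2rg, also 250 bases, holds its complement 199 bases before the start. The 73 bases of Il21r hold neither motif. AGGAAG was found in 35.4% and TTCNNNGAA in 8.30% of the 32851 RefSeq promoter windows of 300 bases. Those windows are longer than the stretches shown, so the shares are not matched to them. A match describes the letters and was not tested as a binding site. In the RefSeq order of protein-coding genes Il4ra and Il21r lie next to each other on chromosome 7, and Il2ra and Il15ra on chromosome 2.

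Depth, the total raw count over the 545 genes, was between 356398 and 1534665 per sample, with P14 sample 5 the lowest. The geometric mean of the 6 positive-control spikes, which are added to each lane and do not come from the cells, lay between 542 and 651 in the P14 lanes and between 1069 and 1235 in the P28 lanes, a ratio of means of 1.94 with no overlap; its part in the results was not tested. Which lanes were run together is not stated in the labels, and an effect of the run that followed the ages could not be told apart from age. P14 samples 4 and 5 had scaled counts far from those of the remaining P14 samples for some members. Fold changes and ratios of members that turn on them are therefore given without them as well. Of the 366 present genes, 112 passed the test (30.6%), 61 of them as higher at P28 (16.7%) and 51 as lower (13.9%), with edgeR's quasi-likelihood test and Benjamini-Hochberg adjustment over the 366 genes at an FDR of 0.05. That split was 93 to 36 with the authors' factors, 89 to 42 with all 14 reference genes and 50 to 74 when the reference gene Polr1b was dropped. It was 89 to 26 with limma on the authors' values, which held only 336 genes and not Il2rb. By total counts it was 51 to 96, and it was 8 to 127 when only positive controls set the scale. Under the last scaling the median over all genes was -0.74 in log2 units, so single changes are relative to the reference genes. All 7 microglia markers on the panel, among them Cx3cr1, Csf1r, Itgam and Trem2, were above the lane threshold in every sample. Of these markers, Trem2 passed as higher (log2 fold change 0.71 ± 0.13), Emr1 passed as lower (-0.72 ± 0.082) and 5 did not pass. With positive controls alone Trem2 was -0.065 and did not pass.

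Among the receptor chains, Il7r and Il21r rose with age, Il2rb fell until it could not be told from background, and Il4ra, Il15ra and Il2rg did not pass the test. Of the ligands, Il15 fell and was still counted in every sample, while Il2 and Il7 were not above background at either age. In all, 4 of the 7 present genes passed (against 30.6% of all present genes), 2 of these as higher (against 16.7%) and 2 as lower (against 13.9%). Their median log2 fold change was 0.21, beside 0.0026 for the 366 genes. In bulk RNA of sorted cells, fewer cells that carry a transcript and less of it per cell cannot be told apart.

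**Figure D1:**
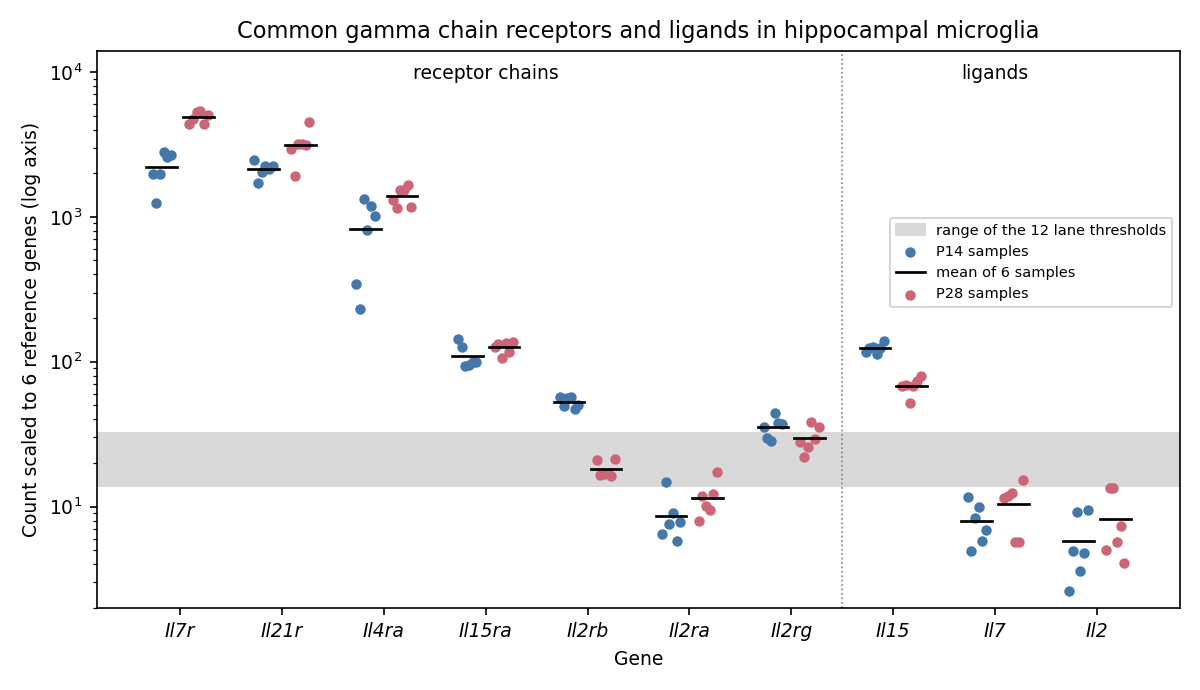
Scaled counts (log axis) of the 7 receptor chains and 3 ligands in each of the 6 P14 and 6 P28 samples, with the mean of each age as a bar and the range of the 12 scaled lane thresholds as a grey band. Il7r, Il2rb and Il15 show no overlap between the ages, and Il2ra, Il7 and Il2 lie within or under the band.

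Il7r encodes the private chain of the receptor for IL-7, which it shares with the cytokine TSLP. Its scaled count had a lowest value of 1242, a median of 2294 and a highest value of 2781 at P14. At P28 the lowest value was 4353, the median 4872 and the highest 5358. Every P28 sample thus lay above every P14 sample, a pattern with this direction seen in 12.8% of the present genes, and the lowest value of all was that of P14 sample 5. The mean went from 2211 ± 593 to 4855 ± 433 scaled counts (SD, n = 6 each). The log2 fold change was 1.13 ± 0.17 (SE; edgeR adjusted p = 0.000139), a 2.19-fold rise. Without P14 samples 4 and 5 it was 0.95. With positive controls alone the log2 fold change was 0.32 and did not pass (adjusted p = 0.441).

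Il21r encodes the private chain of the receptor for IL-21, a cytokine of activated helper T cells. At P14 its scaled counts ran from 1716 through a median of 2190 to 2486. At P28 they ran from 1921 through a median of 3139 to 4525. The ages overlapped through a single sample, P28 sample 119, which held the lowest P28 value; the next P28 value, 2960 in sample 118, exceeded every P14 value. The log2 fold change was 0.55 ± 0.16 (edgeR adjusted p = 0.0188), a 1.46-fold rise. That call was lost when Polr1b was left out of the reference genes (0.43, adjusted p = 0.0621), and with positive controls alone the value turned to -0.22. Leaving out P28 sample 119 gave 0.66 (adjusted p = 0.0025) and leaving out P28 sample 138, the highest, gave 0.42 (adjusted p = 0.0368).

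Il4ra encodes the private chain of the IL-4 receptor, which also serves the IL-13 receptor. Its scaled counts at P14 ran from 232 through a median of 907 to 1335, the widest relative spread of the 7 present genes at that age, with a coefficient of variation of 54.9%. P14 samples 4 and 5 held 343 and 232, and the other 4 P14 samples lay between 809 and 1335. At P28 the counts ran from 1151 through a median of 1415 to 1659. The log2 fold change of 0.75 ± 0.34 did not pass (edgeR adjusted p = 0.102; 95% interval 0.031 to 1.48). Without P14 samples 4 and 5 the log2 difference was 0.36 (adjusted p = 0.0702), and without P14 sample 16, the highest of that age, it was 0.95 and passed (adjusted p = 0.0484). It passed as higher with TMM (0.78, adjusted p = 0.045), DESeq2's own size factors (0.78, adjusted p = 0.0249), all 14 reference genes (0.87, adjusted p = 0.0387), the authors' factors (0.90, adjusted p = 0.0431) and limma on the authors' values (1.13, adjusted p = 0.0267), and it was -0.16 with positive controls alone. The authors' deposited table gives it a ratio of 1.88 with a p-value of 0.0054. Its neighbour Il21r was also at its lowest P14 value in sample 5 (1716) but at its highest in sample 4 (2486).

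Il15ra encodes the high-affinity IL-15 receptor chain. At P14 its scaled counts ran from 93.8 through a median of 99.7 to 143, and at P28 from 106 through a median of 130.2 to 138. P14 samples 4 and 5 held the values 143 and 126, and the other 4 P14 samples lay between 93.8 and 100.1, under every P28 sample. The log2 fold change was 0.21 ± 0.14 and did not pass (edgeR adjusted p = 0.275; 95% interval -0.089 to 0.51). Without P14 samples 4 and 5 it was 0.38 and passed (adjusted p = 0.0192), as did 18.6% of the present genes in this direction without these samples, and with positive controls alone it was -0.44 (adjusted p = 0.264). The authors' deposited table gives a ratio of 1.24 with a p-value of 0.0384.

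Il2rb encodes the beta chain that IL-2 and IL-15 receptors share. It was above the lane threshold in 6 of 6 samples at P14, with scaled counts from 47.2 through a median of 53.1 to 57.4. It was above the threshold in 0 of 6 samples at P28, where the counts ran from 16.2 through a median of 17.0 to 21.3. Measured against the mean of the scaled lane thresholds at P28, Il2rb was at least 2.07-fold lower at that age, a bound that was not itself tested. The fitted log2 fold change was -1.54 ± 0.12 (edgeR adjusted p = 3.49e-07). It depends on counts at background and is no bound. The fitted fall passed under all 29 alternatives that could test Il2rb, from -2.93 with limma after background subtraction to -1.16 with limma and a pseudocount of 10. These alternatives rest on the same P28 counts at background, and Il2rb was present through P14 alone. Only 3 of the 366 present genes (0.820%) were above the threshold in all P14 samples and in no P28 sample; the others were Cxcr2, a chemokine receptor, and Itgal, the CD11a integrin chain. Raw thresholds were higher at P28 (mean 28.8) than at P14 (mean 19.6), so this pattern is by itself no measure of change with age.

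Il2rg, the shared chain itself, was close to background at both ages. It was above the lane threshold in 5 of 6 samples at P14, where scaled counts ran from 28.5 through a median of 36.1 to 44.1. At P28 it was above the threshold in 4 of 6 samples and ran from 22.1 through a median of 28.6 to 38.1. The ages overlapped widely, and the log2 fold change of -0.26 ± 0.16 did not pass (edgeR adjusted p = 0.23; 95% interval -0.61 to 0.078). It passed as lower with total counts (-0.41, adjusted p = 0.0362) and with positive controls alone (-0.99, adjusted p = 0.0268), under which 34.7% of the present genes passed as lower. Il2ra, the chain that raises the affinity of the IL-2 receptor, had raw counts from 5 to 17 and exceeded the highest negative probe of its lane in 0 of 12 samples.

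Of the ligands, Il15, which encodes a cytokine that macrophages and glia can make, was above the lane threshold in every sample. Its scaled counts ran from 113 through a median of 124 to 139.8 at P14 and from 51.5 through a median of 68.6 to 79.98 at P28. Every P28 sample lay below every P14 sample, which held with this direction for 7.92% of the present genes. The mean went from 124 ± 9.30 to 68.3 ± 9.49 (SD, n = 6 each). The log2 fold change was -0.86 ± 0.12 (edgeR adjusted p = 0.000128), so that the P14 level was 1.81 times that at P28, and the fall passed under all 30 alternatives (-1.58 to -0.73). Il7 had raw counts from 2 to 16 and Il2 from 2 to 17, and neither exceeded the highest negative probe of its lane in any of the 12 samples, so no age difference could be measured for them at this depth.

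**Figure D2:**
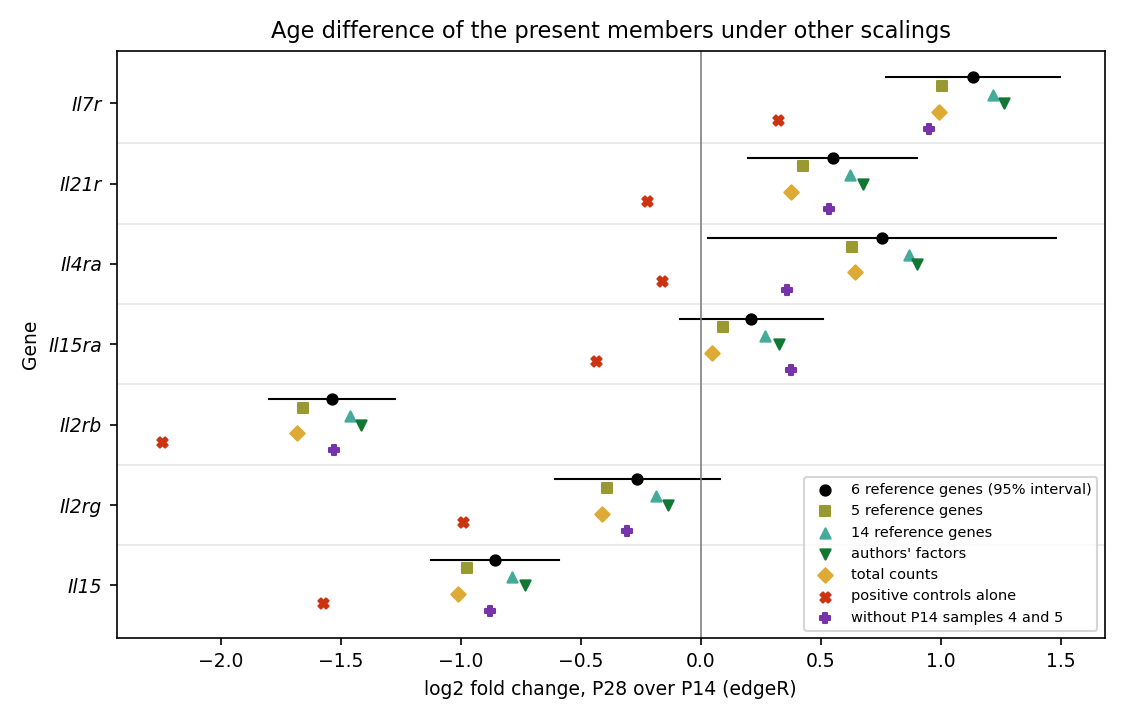
Log2 fold change, P28 over P14, of the 7 present genes from edgeR with 6 reference genes (black, with its 95% interval), under 5 other scalings and without P14 samples 4 and 5. Il2rb and Il15 lie below 0 and Il7r above 0 under each of these, while Il21r, Il4ra and Il15ra turn negative with positive controls alone.

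Ratios of 2 genes within a sample do not depend on how the lane is scaled, so they were used to compare receptor chains with ligands and private chains with the shared chain. Of 14 pairs set out for this, 10 had both genes present; the pairs with Il7, Il2 or Il2ra could not be tested. Each was tested with an exact two-sided permutation test over the 924 arrangements of the 12 samples, which allows no p under 0.00216. Benjamini-Hochberg adjustment was over the 10 pairs, and on the counts as measured 9 pairs passed. The pairs were chosen with earlier results of these data known, and the share of other gene pairs that would pass was not computed. The number of pairs that passed is therefore no result about the family. For the 3 pairs with Il2rb, which was at background in every P28 sample, the difference is given with the P28 count of Il2rb raised to the lane threshold. That gives a bound where the other gene is Il15 or Il15ra, but not where it is Il2rg, which lay near the threshold itself. This setting was chosen after seeing the data, and Il2rb over Il15 did not pass with it. Only the change of a ratio with age is read, since its level also reflects the yields of both probes.

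The ratio of Il15ra to Il15 rose between the ages. Its log2 value ran from -0.48 to 0.30 at P14 and from 0.67 to 1.03 at P28, without overlap, with means of -0.19 ± 0.30 and 0.88 ± 0.14 (SD, n = 6 each). The difference of 1.07 makes the ratio 2.10 times as high at P28 (exact permutation p = 0.00216, adjusted p = 0.00361). P14 samples 4 and 5 had the highest P14 ratios, 0.30 and 0.028, and without them the difference was 1.25. The chains that signal for IL-15 were compared with it in the same way. Il2rb over Il15 passed on the counts as measured (-0.65, exact permutation p = 0.00216, adjusted p = 0.00361), but not with Il2rb at the lane threshold at P28 (-0.17, exact permutation p = 0.262, adjusted p = 0.291, with overlap), so a change of this ratio was not detectable at this depth. Il2rg over Il15 was higher at P28 by 0.60 (exact permutation p = 0.00433, adjusted p = 0.00618), with overlap between the ages, and it did not pass after background subtraction (0.59, adjusted p = 0.111). Il15ra over Il2rb, the presenting chain against the beta chain, was at least 2.36-fold higher at P28 (log2 bound 1.24, exact permutation p = 0.00216, adjusted p = 0.00433). Its log2 values ran from 0.73 to 1.31 at P14 and, at the bound, from 1.85 to 2.42 at P28, without overlap.

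Private chains were also set against the shared chain. Il7r over Il2rg rose by 1.45 on the log2 scale, from 5.88 ± 0.33 to 7.33 ± 0.26 (SD, n = 6 each; exact permutation p = 0.00216, adjusted p = 0.00361), and Il21r over Il2rg rose by 0.78 with the same p-values; neither pair overlapped between the ages. With Il2rb at the lane threshold at P28, Il2rb over Il2rg was 1.70-fold lower at P28, again without overlap (log2 difference -0.77, exact permutation p = 0.00216, adjusted p = 0.00433). That value is no bound, because Il2rg was itself below the threshold in P14 sample 5 and P28 samples 119 and 134. Il4ra over Il2rg differed by 1.27 (exact permutation p = 0.0108, adjusted p = 0.0135) with overlap, and by 0.67 without P14 samples 4 and 5. Il15ra over Il2rg differed by 0.47 (exact permutation p = 0.0325, adjusted p = 0.0361); it did not pass when P14 sample 16, 25, 61 or 81 or P28 sample 118, 119 or 134 was left out (0.37 to 0.49, adjusted p = 0.0505 to 0.0673), nor after background subtraction (0.66, adjusted p = 0.111). All ratios to Il2rg rest on raw counts of that gene between 12 and 49, near the lane thresholds. Il7r over Il4ra differed by 0.18 and did not pass (exact permutation p = 0.602); without P14 samples 4 and 5 the difference was 0.59 (adjusted p = 0.0381), and without P14 sample 16 it was -0.035.

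**Figure D3:**
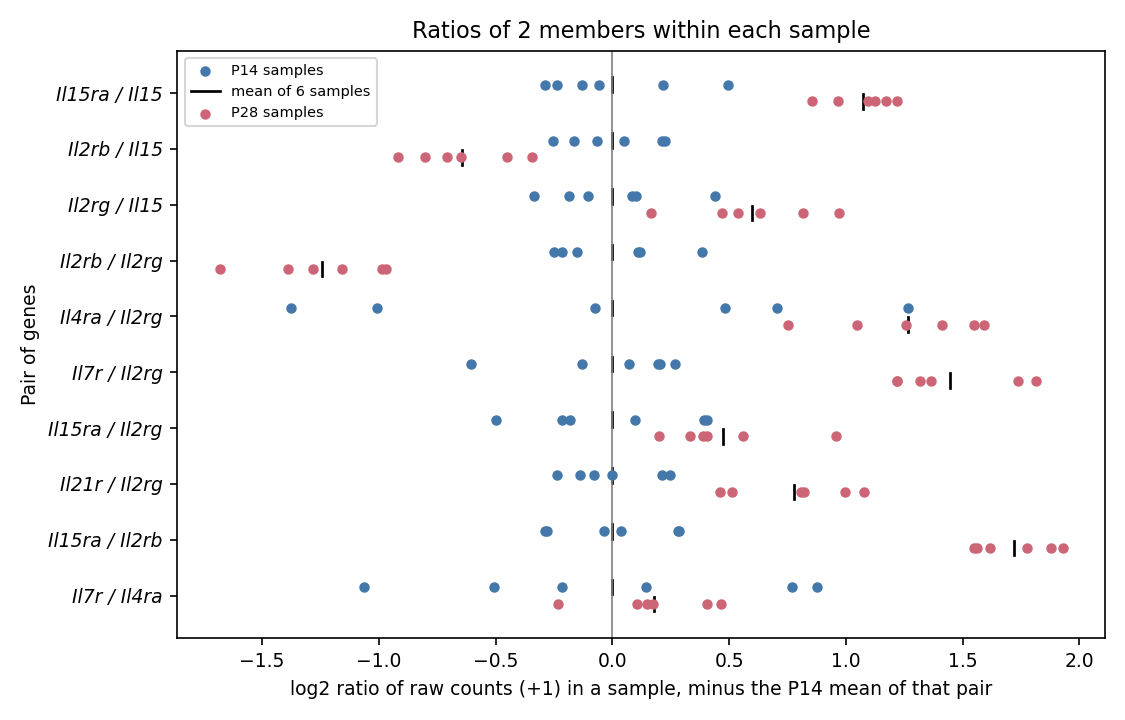
Log2 ratio of raw counts (with 1 added to each) of 2 genes in each sample, minus the P14 mean of that pair, for the 10 pairs, with the mean of 6 samples per age as a bar. Points of the ages are separate in 6 pairs, among them Il15ra over Il15 and Il7r over Il2rg; in the 3 pairs with Il2rb the P28 points are at counts below the lane threshold, and P14 samples spread widely where Il4ra is part of the pair.

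The other genes of the pathway were read from a list of related ligands and receptors and a list of signalling genes. Of 11 related ligands and receptors on the panel, 5 were present. Of these, 0 passed as higher (against 16.7% of all present genes) and 1 as lower (against 13.9%). That gene was Crlf2, the TSLP receptor chain that pairs with Il7r, which fell: its mean scaled count was 101 ± 46.4 at P14 and 54.4 ± 10.8 at P28 (log2 fold change -0.86 ± 0.26, edgeR adjusted p = 0.0188). It did not pass without P14 samples 4 and 5 (-0.47, adjusted p = 0.0585) or with limma on the authors' values (-0.66, adjusted p = 0.0611). Its ligand Tslp had -0.38 ± 0.15 (adjusted p = 0.0619) and passed as lower with total counts, TMM, DESeq2's own size factors and positive controls alone, without Polr1b, and without those samples. Il13ra1, which joins Il4ra in the type II IL-4 receptor, had 0.41 ± 0.31 (adjusted p = 0.354), Il21 had 0.19 ± 0.19 at the edge of background, and Csf2rb, the shared chain of a sister family, had -0.093 ± 0.16. Il4 and Il9, ligands of the family, were not present.

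Of 21 signalling genes on the panel, 18 were present; 4 passed as higher (16.7% of all present genes), 1 as lower (13.9%) and 13 did not pass. Stat5a, a STAT factor that acts downstream of IL-7 and IL-15, rose, with a mean scaled count of 423 ± 134 at P14 and 633 ± 42.2 at P28 (log2 fold change 0.57 ± 0.19, edgeR adjusted p = 0.0274). It did not pass without Polr1b (0.45, adjusted p = 0.0821), and it was 0.34 without P14 samples 4 and 5 (adjusted p = 0.021). Its close relative Stat5b did not pass (0.18 ± 0.10, adjusted p = 0.189), nor did Stat6 (-0.071 ± 0.096) or Stat3 (-0.30 ± 0.13, adjusted p = 0.0924). Stat5b passed as higher with all 14 reference genes (0.25), the authors' factors (0.31) and limma on the authors' values (0.30). Stat6 passed as lower with total counts (-0.23). Stat3 passed as lower with total counts (-0.45), TMM (-0.34), DESeq2's own size factors (-0.34) and positive controls alone (-1.07), without Polr1b (-0.42), and without P14 samples 4 and 5 (-0.39, adjusted p = 0.0185). Jak3, the kinase that binds the shared chain, averaged 3914 ± 1211 at P14 against 2785 ± 343 at P28 in scaled counts (-0.49 ± 0.19, adjusted p = 0.0578), and Jak1, the kinase of the private chains, had 0.12 ± 0.16 (adjusted p = 0.604). Without P14 samples 4 and 5, Jak3 passed as lower (-0.72, adjusted p = 0.000447), as 24.6% of the present genes then did; it also passed as lower under the scalings that called Stat3 and with all 14 reference genes (-0.40, adjusted p = 0.0439).

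Of the inhibitors on the list, Socs3 and Ptpn6 passed as higher, Socs1 (-0.096 ± 0.34, adjusted p = 0.859) and Ptpn2 (0.36 ± 0.15, adjusted p = 0.0924) did not pass, and Cish was not present. Without P14 samples 4 and 5, Socs1 passed as lower, as 24.6% of the present genes then did. Ptpn2 passed as higher with TMM (0.33), DESeq2's own size factors (0.31), all 14 reference genes (0.44), the authors' factors (0.49) and limma on the authors' values (0.53). Socs3, a feedback inhibitor of JAK kinases, had a log2 fold change of 1.19 ± 0.26 and Ptpn6, the phosphatase SHP-1, of 0.45 ± 0.10 (edgeR adjusted p = 0.00276 for both). Prdm1, a transcriptional repressor that cytokines of this family induce in lymphocytes, rose by 0.31 ± 0.11 (adjusted p = 0.041) and did not pass without Polr1b (0.19), with total counts (0.15), with TMM (0.24) or with DESeq2's own size factors (0.24). Gfi1, another repressor, passed as lower (-0.52 ± 0.15, adjusted p = 0.0157) but was above the lane threshold in 5 of 6 P14 samples and 0 of 6 P28 samples, at a level that gives no bound on its fold. Stat5a (-0.25), Ptpn6 (-0.26) and Prdm1 (-0.38) turned negative and Socs3 (0.34) did not pass with positive controls alone. The signalling genes higher and lower numbered 8 and 2 with all 14 reference genes, 8 and 0 both in limma on the authors' values and under the authors' factors, 5 and 3 with TMM and with DESeq2's own size factors, 3 and 4 with total counts, 2 and 3 without Polr1b, and 0 and 4 when only positive controls set the scale. Leaving out P14 samples 4 and 5 gave 4 and 4. Limma on the authors' values could test 17 of the 18 genes.

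**Figure D4:**
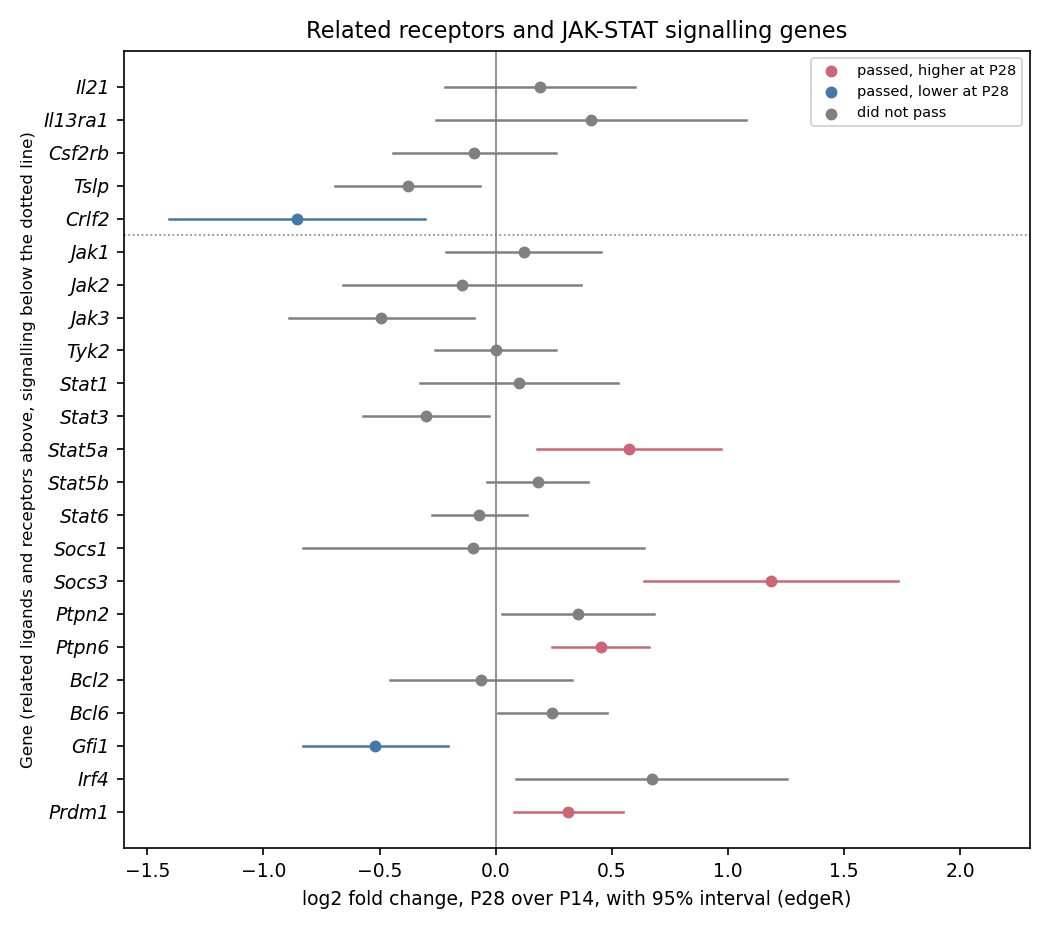
Log2 fold change, P28 over P14, with its 95% interval for the 5 present related ligands and receptors and the 18 present signalling genes. Stat5a, Socs3, Ptpn6 and Prdm1 passed as higher, Crlf2 and Gfi1 passed as lower, and the genes in grey did not pass after adjustment over the 366 genes.

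Il7r and Il2rb are also genes of lymphocytes, so markers of T cells, NK cells and some other cells are given beside them. Of 18 T cell genes on the panel, 9 were present, and 3, Cd3e, Cd2 and Cd28, were above the lane threshold in 0 of 12 samples. Of other T cell receptor and coreceptor genes, Cd3d was above it in 2 P14 samples and 1 P28 sample, Cd4 in 3 and 1, Cd8a in 2 and 0 and Cd8b1 in 5 and 5, while Cd27, a costimulatory receptor, was above it in all 12. Raw thresholds were higher at P28 (mean 28.8) than at P14 (mean 19.6). Such numbers of samples, also for the NK cell genes below, are therefore no measure of change with age. Cd8a, for example, had mean scaled counts of 14.9 at P14 and 17.4 at P28. Cd5 rose (1.07 ± 0.20) and the T cell kinase Lck fell (-1.01 ± 0.15), and the summed level of the 18 genes was 571 to 855 scaled counts at P14 and 668 to 845 at P28. Of 12 NK cell genes, 7 were present, and 2, Klrb1 and Gzmb, were above the threshold in 0 of 12 samples. Prf1, the perforin gene, was above it in 5 P14 and 6 P28 samples, Klrc2 in 4 and 6, Tbx21 in 3 and 4, Klrc1 in 4 and 1 and Eomes in 1 and 1. Klrd1, the CD94 chain, rose (2.72 ± 0.21). Klrk1, the receptor NKG2D, and the granzyme Gzma passed as lower, but each was above the threshold in 5 P14 and 0 P28 samples and so was present through P14 alone. Against the mean scaled threshold at P28, Klrk1 was at least 1.49-fold and Gzma at least 1.10-fold lower. The P14 mean of Gzma, 28.0, lay within the range of the scaled lane thresholds (13.9 to 32.0), so its fall is one near background. The summed level of the NK cell genes was 190.4 to 339 at P14 and 346 to 447 at P28, and without Klrd1 it was 178 to 330 and 237 to 338, with overlap. Endothelial and mural markers, all 4 of which were present, summed to 3063 to 4850 at P14 and 6179 to 14622 at P28, without overlap, and without Cd34 to 2073 to 3345 and 1857 to 2941, with overlap. Cd34 (2.54 ± 0.26) and Pdgfrb (0.41 ± 0.14) were higher, Cdh5 was lower (-0.63 ± 0.15), and Pecam1 did not pass (-0.43 ± 0.21). Pdgfrb did not pass without Polr1b (0.30), with total counts (0.27) or without P14 samples 4 and 5 (0.29), and was -0.35 with positive controls alone. Of 6 dendritic cell genes 5 were present, Itgax (1.91 ± 0.22) and Cd83 (0.67 ± 0.16) rose, 0 fell, and the summed level was 2068 to 4392 at P14 and 3665 to 4919 at P28. The part of such cells in the values of Il7r and Il2rb was not tested.

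The genes whose scaled log2 counts ran most like those of each member over the 12 samples were found among the other present genes, with Pearson's r after centring on the age means beside it; the samples share their lanes and scale factors. For Il7r these were H2-Ob, a chain of an MHC class II peptide-loading modulator (r = 0.98, centred 0.93), Cybb, the NADPH oxidase chain (0.96 and 0.81), and Itgax, the integrin chain CD11c (0.96 and 0.79). For Il4ra they were Ncf4, a subunit of the same oxidase (0.98 and 0.98), Irf4 (0.97 and 0.95) and Csf1r, the CSF1 receptor on which microglia depend (0.97 and 0.96). Correlations were not computed without P14 samples 4 and 5, in which Il4ra had its lowest scaled counts (343 and 232). For Il21r they were Tlr9 (0.94 and 0.89), Notch1 (0.92 and 0.88) and Cmklr1 (0.91 and 0.83). For Il2rb they were Bax (0.98), Fcer1g (0.97) and Fcgrt (0.96), whose centred values were 0.31, 0.18 and 0.16. The gene most like Il15 was Il2rb (0.94, centred 0.14). Il2rb was above the lane threshold in 0 of 6 P28 samples, so its centred values at P28 are background counts. Its centred correlations, with Il15 or another gene, therefore cannot show whether they varied together within an age. For Il15ra the closest was Clec5a (0.81 and 0.75), followed by Cd81 and Tnfrsf13b, and for Il2rg it was Il12rb2 (0.74 and 0.65), followed by Bst1 and Mx1.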

How the data were processed

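Raw whole counts of barcodes per probe and, in a second table, values scaled by the authors (used as a score, to positive controls and reference genes) were deposited; per the labels' protocols, 2 ng of RNA were converted to cDNA and amplified with 5 rounds of PCR. Counting software was not named in the sources used here. The deposited score table also gives the authors' ratio of the age means and, per the file headers, a p-value from a t-test. Sample titles gave the age groups. The members, gene lists and pairs were chosen with earlier results of these data known.

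The main test was the quasi-likelihood test of edgeR 4.0.16 (glmQLFit, glmQLFTest; R 4.3.3), run on raw counts of present genes in all 12 samples, with the geometric mean of Alas1, Gapdh, Oaz1, Polr1b, Sdha and Tbp as offset and age as the term. Log2 fold changes divide P28 by P14 and carry their SE. For a gene under the lane threshold in every sample of an age, the bound divides the mean at the age with signal by the mean scaled threshold. Pair ratios used raw counts with a pseudocount of 1. Alternatives were DESeq2 1.42.0, limma 3.58.1, other scalings, presence rules, pseudocounts, a background subtraction, FDRs of 0.01 and 0.10, and samples left out. Scripts were tested on simulated data. Targets were amplified, so counts are not independent molecules. Genes named were the members, list genes by call or smallest p, and the 3 genes most alike to each member. Cd3eap is in the T cell list by its name and is not a T cell gene. All 10 members matched RefSeq by accession. Columns that match no sample numbered 0. A marker list of other cells is not reported here.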

Additional observations from a re-analysis of the deposited data

How the results depend on the processing

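Of 30 alternatives, Il15 kept its direction and call in 30 and Il2rb in the 29 that could test it; Il7r lost its call in 1 (positive controls alone) and Il21r in 3. The present genes of the family that passed as higher numbered 0 with positive controls alone, 1 without Polr1b and 1 at an FDR of 0.01, against 2; those lower numbered 1 with limma on the authors' values, which could not test Il2rb. With 1 sample left out they numbered 2 to 3 higher and 2 to 2 lower. With positive controls alone Il21r (-0.22), Il4ra (-0.16) and Il15ra (-0.44) turned negative. The log2 difference of Il2rg over Il15 was 0.59 after background subtraction and did not pass, and that of Il7r over Il4ra was -0.035 without P14 sample 16 and 0.35 without P14 sample 4. With Il2rb at the lane threshold at P28, an alternative chosen after seeing the data, the difference of Il2rb over Il15 was -0.17 and did not pass. Leaving out 1 sample gave 1.02 to 1.17 for Il15ra over Il15, -0.71 to -0.59 for Il2rb over Il15 and 0.52 to 0.69 for Il2rg over Il15. Pairs that passed, with Il2rb not raised to the lane threshold, numbered 7 to 10 and all genes called 78 to 158. No paired analysis was possible because the ages share no sample number. Depth limits Il2rb at P28 and Il2ra, Il2 and Il7 at both ages, which lie at background, and Il2rg, which lies near it.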
